A study of Pimephales promelas with 32 samples.

Results

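This account covers 99 gene models whose transcripts were scarcer in fathead minnow larvae kept with bifenthrin than in control larvae. Their mean level with copper sulfate stayed within a window around the control level, and it was below that level for 95 of them. They were chosen from the counts themselves, out of 26150 gene models. A model was kept if its mean raw count over the 32 larvae was at least 50 and under 10000, if its mean CPM (the model's count divided by the larva's total count, times 1000000) in bifenthrin larvae was at most 0.5 times that in controls, if the highest bifenthrin larva lay below the lowest control larva, and if its mean CPM with copper sulfate was 0.8 to 1.25 times that in controls. The differences of the members between bifenthrin larvae and controls, between copper sulfate larvae and controls, and between bifenthrin and copper sulfate larvae therefore describe how they were chosen and carry no test.

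Each RNA-seq library was made from the whole body of 1 larva of Pimephales promelas, the fathead minnow, a freshwater fish used in toxicity testing. The groups were 10 larvae kept for 48 h with 3.2 µg/L bifenthrin, 11 larvae kept for 48 h with 40 µg/L copper sulfate, and 11 control larvae, and the labels give water with 0.002% DMSO as vehicle for all 3 groups, although the series text calls the controls untreated. The age label reads 4 days after fertilization and 48 h after hatching, whereas the treatment protocol gives larvae of 96 h after hatching, and the files do not settle which is right. Each treatment had 5 beakers of 10 larvae, so some sequenced larvae of a group shared a beaker. Which larvae did is not given in the labels, and p-values that treat larvae as independent may be too small. Each chemical was used at a single concentration.

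Bifenthrin is a pyrethroid insecticide. Pyrethroids hold voltage-gated sodium channels open, so that nerve and muscle cells fire repeatedly, and fish are among the animals most sensitive to them. Dissolved copper acts in another way, by disturbing sodium uptake at the gill and by promoting oxidative damage. The series asks how specific transcript classifiers are for chemicals that act differently, and transcripts that differ with 1 chemical and not with the other are the material of such a classifier. The table names its genes by model numbers and, for most models, by UniProt accessions, which are identifiers of entries in a protein database. The accessions are not paired with protein names in the sources used here, so the members are given by their identifiers and no function is assigned to them. Of the 99 members, 97 carried an accession, and 0 carried an enzyme class number. Because whole larvae were sequenced, fewer cells of a type and less RNA per cell cannot be told apart.

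Total counts per larva ran from 11440484 to 16007606 in bifenthrin larvae, from 11646077 to 16416225 in copper sulfate larvae and from 10655113 to 17993699 in controls. All 99 members passed the abundance filter that left 21174 models for testing. Their mean counts ran from 51.8 to 2499 per larva with a median of 203, against a median of 260 over the 16457 models in the same count window. No length correction was possible, so CPM values are compared between larvae and not between models. The labels put 5 bifenthrin, 6 copper sulfate and 5 control larvae in sequencing lane 7, and 5 bifenthrin, 5 copper sulfate and 6 control larvae in lane 6.

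The summed share of the library held by the 99 members is given as a description, since the rule sets bifenthrin larvae below controls in each member and bifenthrin means below copper sulfate means. It was 0.0949% to 0.138% of counts in bifenthrin larvae (median 0.114%), 0.176% to 0.281% with copper sulfate (median 0.223%) and 0.213% to 0.289% in controls (median 0.262%). No bifenthrin larva reached the lowest copper sulfate or control larva, while the ranges of copper sulfate and control larvae overlapped. The ratio of mean CPM in bifenthrin larvae to that in controls ran from 0.193 to 0.50 over the members, with a median of 0.441. Most members stood near the upper limit: 74 had a ratio of 0.4 or more, 21 a ratio from 0.25 to under 0.4, and 4 a ratio under 0.25. All 99 were called lower with edgeR's quasi-likelihood test at an adjusted p under 0.05, as were 20.2% of all tested models, and this count follows from the choice of members. All 99 were also called lower in bifenthrin larvae than in copper sulfate larvae, as were 17.1% of all tested models, with a median log2 fold change of -0.93. The limits on both ratios set the members' bifenthrin means below their copper sulfate means, so nothing is read from this count. Over all tested models 4.19% met the condition that the highest bifenthrin larva lay below the lowest control larva.

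The lowest ratio belonged to FMg015679 (UniProt E7EXW6). Its level had a minimum, median and maximum of 1.56, 3.32 and 9.25 CPM in bifenthrin larvae, of 11.1, 18.7 and 25.0 CPM in copper sulfate larvae and of 11.9, 20.1 and 26.7 CPM in controls. The bifenthrin larvae lay below all other larvae, and the copper sulfate larvae spanned almost the same range as the controls. The log2 fold change of bifenthrin over control was -2.32 ± 0.21 (SE, from the edgeR fit), the most negative of the members. Next came FMg025608 (Q6NV07), with 1.23, 1.93 and 2.66 CPM as lowest, median and highest bifenthrin larva, 5.05, 7.04 and 12.3 CPM with copper sulfate and 4.76, 9.38 and 13.7 CPM in controls. Again every copper sulfate larva stood above every bifenthrin larva, and none stood below the lowest control.

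FMg006355 (Q803E2) ran from 0.816 to 1.65 CPM in bifenthrin larvae, from 2.56 to 7.49 CPM in copper sulfate larvae and from 2.84 to 7.60 CPM in controls, with a log2 fold change of bifenthrin over control of -2.10 ± 0.19 (SE, edgeR fit). FMg014426 (A5WWB6) ran from 0.880 to 2.75 CPM in bifenthrin larvae, from 4.04 to 8.52 CPM in copper sulfate larvae and from 4.31 to 9.32 CPM in controls. In FMg014426, 4 of 11 copper sulfate larvae had less than the lowest control, although none came down to the bifenthrin range. These 4 models were the members with a ratio under 0.25.

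FMg016356 (Q5T619) differed from them in that the copper sulfate larvae tended to lie above the controls. Its lowest, median and highest values were 1.31, 2.90 and 8.86 CPM in bifenthrin larvae, 14.7, 18.3 and 22.3 CPM in copper sulfate larvae and 9.32, 15.3 and 20.7 CPM in controls. The bifenthrin larvae were spread more widely in this model than in any other member, with an SD of 62.6% of their mean. FMg014186 (A0A1D5NSP9) was the member of the 10 lowest ratios in which the chemicals overlapped most. It ran from 1.00 to 3.60 CPM in bifenthrin larvae, from 1.94 to 9.78 CPM in copper sulfate larvae and from 4.07 to 9.95 CPM in controls, and 2 copper sulfate larvae lay within the bifenthrin range. The remaining 4 of the 10 lowest ratios, FMg000615 (Q7ZUS1), FMg012199 (E7FD52), FMg011236 (Q90X40) and FMg013175 (Q7ZUZ6), had ratios of 0.333 to 0.342 and between 3 and 6 copper sulfate larvae below the lowest control.

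**Figure D1:**
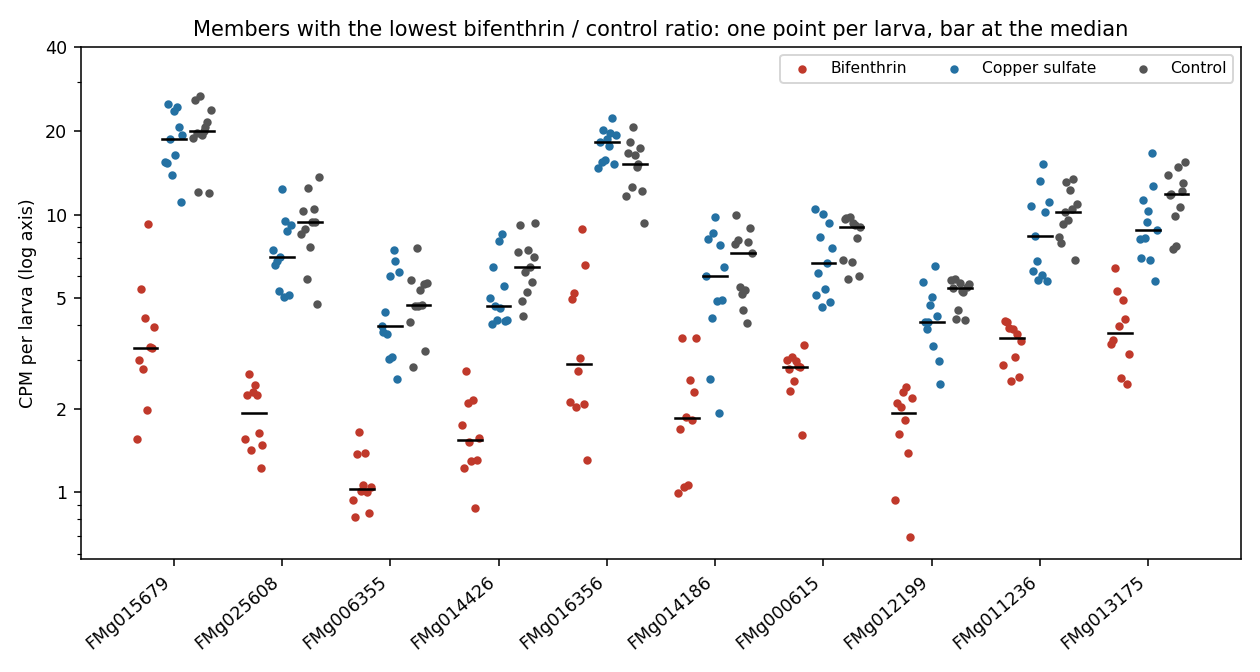
CPM per larva on a log axis for the 10 members with the lowest bifenthrin to control ratio, with bifenthrin larvae on the left of each trio, copper sulfate larvae in the middle and controls on the right. Each point is a larva and each bar a median. In FMg015679 the bifenthrin larvae end at 9.25 CPM and the controls begin at 11.9 CPM, and the copper sulfate points cover nearly the range of the controls.

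Among the 6 members named for their CPM in controls, FMg015952 (E9PHM6) had 80.1, 101 and 124 CPM as lowest, median and highest bifenthrin larva, 141, 181 and 339 CPM with copper sulfate and 134, 248 and 334 CPM in controls. FMg000654 (Q9I8N9) had 55.2, 98.9 and 144 CPM in bifenthrin larvae, 112, 184 and 307 CPM in copper sulfate larvae and 153, 233 and 288 CPM in controls. In FMg000654, 3 copper sulfate larvae lay at or below the highest bifenthrin larva, whereas in FMg015952 none did. FMg005235 (A1L223) had a median of 52.5 CPM in bifenthrin larvae, 89.0 CPM in copper sulfate larvae and 110 CPM in controls, and 6 of 11 copper sulfate larvae stood below its lowest control.

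In FMg009076 and FMg010428, also of these 6, copper sulfate means were close to those of controls. FMg009076 (Q9DGE0) ran from 25.0 to 49.9 CPM in bifenthrin larvae, from 59.8 to 76.3 CPM in copper sulfate larvae and from 57.6 to 82.9 CPM in controls, so that the copper sulfate larvae lay entirely inside the control range. Their SD was 7.44% of the mean, the smallest of any member in copper sulfate larvae. FMg010428, which carries 9 accessions (P0DP23 the first of them), ran from 33.04 to 57.1 CPM in bifenthrin larvae, from 78.8 to 121 CPM in copper sulfate larvae and from 79.1 to 114 CPM in controls. Its mean with copper sulfate was 1.01 times that of controls. In FMg020545 (Q7ZTY4), by contrast, 7 of 11 copper sulfate larvae had less than the lowest control, with medians of 28.5 CPM in bifenthrin larvae, 47.1 CPM in copper sulfate larvae and 58.6 CPM in controls.

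The limit of 0.5 cut through a continuous run of values. Just inside it were FMg019631 (Q803J4), FMg010428 and FMg004859 (Q6PBW9), with ratios of 0.4999, 0.4993 and 0.4990. Just outside it, and meeting all other conditions, were FMg010935 (E7F2W8), FMg007403 (A3KPR1) and FMg024729 (F8W411), with ratios of 0.5001, 0.5003 and 0.5005. Inside the limit, FMg019631 had medians of 8.73 CPM in bifenthrin larvae and 15.6 CPM in controls. Outside it, the medians in bifenthrin larvae and controls were 3.27 and 7.39 CPM for FMg010935 and 13.4 and 26.7 CPM for FMg007403. For FMg024729 they were 8.80 and 17.4 CPM. These levels are not compared between models. The condition on overlap was narrow as well, since in 26 members the gap between the highest bifenthrin larva and the lowest control was under 10% of that control.

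The levels with copper sulfate did not centre on the control level. They lay mostly below it, so calling these models lower with bifenthrin but not with copper sulfate holds only within the window that chose them. The ratio of mean CPM with copper sulfate to that in controls was below 1 for 95 of 99 members, with a range of 0.80 to 1.21 and a median of 0.835. It was under 0.85 for 61 members, 0.9 to 1.1 for 16 members and above 1.1 for 3. Over the 16457 models of the same count window the median ratios by library totals were 0.942 for bifenthrin and 0.946 for copper sulfate. With TMM scaling, the members had a median log2 fold change of copper sulfate over control of -0.21, against -0.01 over all tested models. In that edgeR comparison 0 of 99 members were called in either direction, against 1.99% of all tested models called lower and 3.58% called higher. An unadjusted edgeR p under 0.05 was found for 19 members (19.2%), all lower, and for 18.6% of all tested models. Of those models 2001 were lower and 1928 higher. The window for copper sulfate bears on these counts.

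The window of the rule kept the upper edge of a larger set. Before it was applied, 314 models met the conditions on count, bifenthrin ratio and overlap. Of these, 213 had a copper sulfate ratio below 0.8 and were left out, 2 had a ratio above 1.25, and 99 remained. The 213 models below the window had a median ratio of 0.330 for bifenthrin and 0.720 for copper sulfate, and 139 of them had a copper sulfate ratio of 0.7 or more. Both models above the window, FMg000282 and FMg003985, were higher with copper sulfate than in controls, with ratios of 1.46 and 1.31. All comparisons with copper sulfate and with bifenthrin used the same controls, so a member's ratios for the 2 chemicals are not independent.

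**Figure D2:**
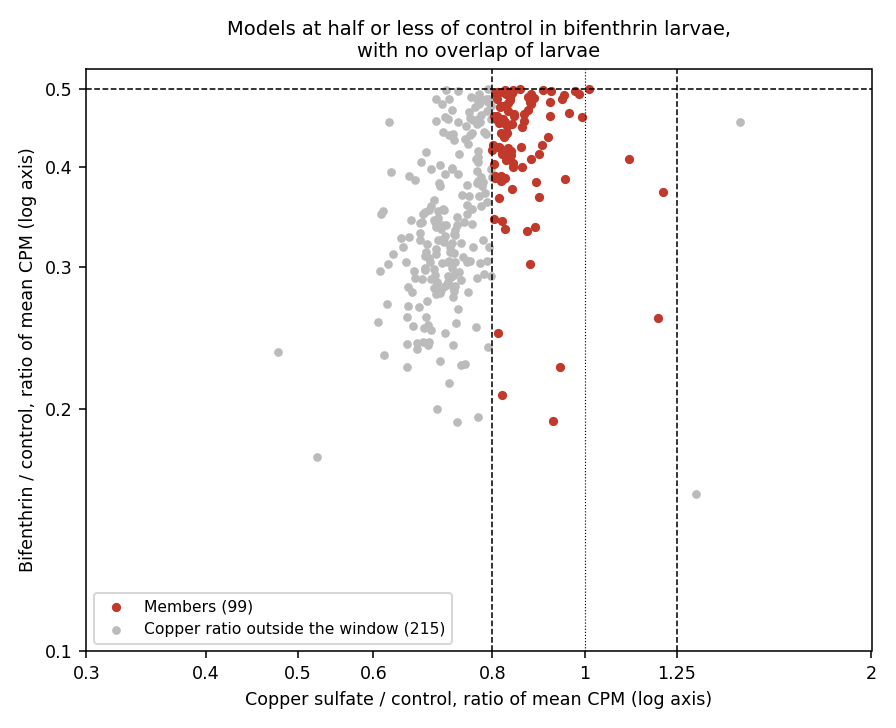
Ratio of mean CPM in bifenthrin larvae to that in controls against the ratio of copper sulfate larvae to controls, both on log axes, for the 314 models that met the other conditions. Members are red, models outside the copper sulfate window grey, and dashed lines mark the limits of the rule. The 99 members form the right-hand part of a single cloud, with 95 of them left of a copper sulfate ratio of 1.

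Members at the ends of the window showed what it spans. At its lower end, FMg018939 (A1L2E5) had medians of 22.8 CPM in bifenthrin larvae, 41.5 CPM in copper sulfate larvae and 56.0 CPM in controls. FMg006407 (Q4KMD7) had medians of 3.18 CPM in bifenthrin larvae, 6.01 CPM in copper sulfate larvae and 7.28 CPM in controls. FMg011281 (Q803A6) had medians of 9.84 CPM in bifenthrin larvae, 18.4 CPM in copper sulfate larvae and 20.1 CPM in controls, and 5 of 11 copper sulfate larvae lay below its lowest control. In each of these 3 the copper sulfate median stood between those of the other groups, and the copper sulfate larvae overlapped the controls. At the upper end, FMg014799 (F1RC59) had medians of 3.82 CPM in bifenthrin larvae, 11.9 CPM in copper sulfate larvae and 9.31 CPM in controls. FMg018329 (B3DJR0) had medians of 7.36 CPM in bifenthrin larvae, 20.1 CPM in copper sulfate larvae and 17.2 CPM in controls. In FMg014799, FMg018329 and FMg016356, which make up the upper end, no copper sulfate larva lay below the lowest control.

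Single copper sulfate larvae differed widely in their level of the members. The level of a larva was taken as the median over the 99 members of its CPM divided by the mean CPM of controls. It ran from 0.354 to 0.519 in bifenthrin larvae (median 0.434), from 0.643 to 1.11 in copper sulfate larvae (median 0.853) and from 0.819 to 1.12 in controls (median 0.981). The bifenthrin larvae stood apart, 5 copper sulfate larvae lay below every control, and the other 6 lay within the control range. Copper sulfate replicate 7 was the lowest at 0.643, with 69 of 99 members below the lowest control and 26 at or below the highest bifenthrin larva. Copper sulfate replicate 10 followed at 0.711, with 56 members below the lowest control. At the other extreme, copper sulfate replicate 5 stood at 1.11, with 74 members above the control mean and 4 below the lowest control. The same counts over other models are not given here, so these are not read as particular to the members.

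Replicate 7 was the lowest copper sulfate larva in 37 members and replicate 4 in 16. Per member, the number of copper sulfate larvae below the lowest control had a median of 3 of 11 and a maximum of 8, and it was 0 for 11 members. This number was not set beside that of other models, so it only describes the members. In 49 members no copper sulfate larva came as low as the highest bifenthrin larva. Such a separation was found in 1.42% of all tested models, but the rule favours it in the members, so nothing is read from the difference. Membership depended on these larvae: without copper sulfate replicate 5 the rule gave 62 models, 61 of them among the 99, and without copper sulfate replicate 7 it gave 116, which included all 99. When replicates 7 and 10 were both left out, a choice made after seeing the data, it gave 146 models, of which 97 were members.

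**Figure D3:**
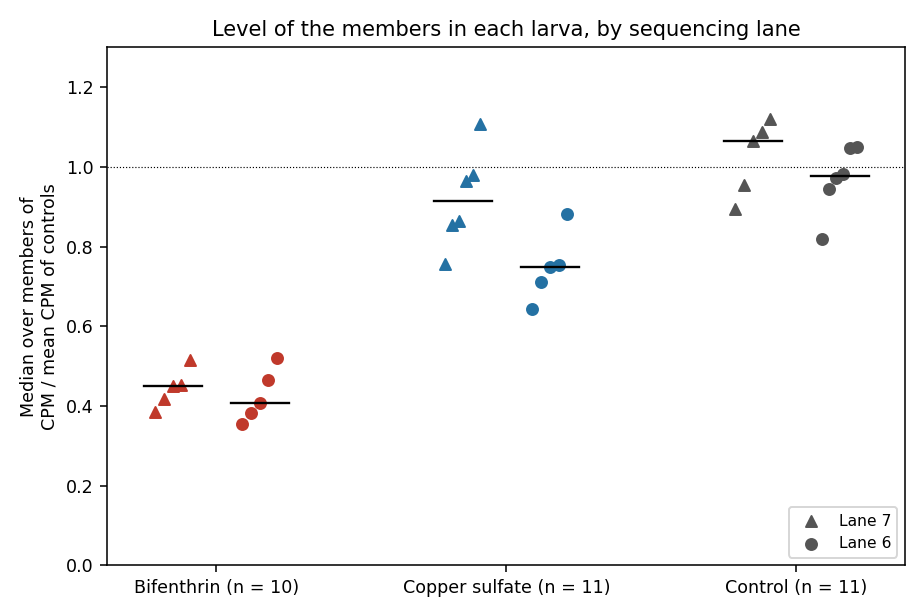
Level of the members in each larva, as the median over 99 members of CPM divided by the mean CPM of controls, by group and sequencing lane (triangles lane 7, circles lane 6). Points are larvae and bars are medians by lane. Bifenthrin larvae lie between 0.354 and 0.519, copper sulfate larvae are spread from 0.643 to 1.11, and controls lie between 0.819 and 1.12.

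Sequencing lane was not used by the rule. The difference between lanes was positive for most members, with more CPM in lane 7 than in lane 6, but no member passed the test. The log2 fold change of lane 7 over lane 6, with group in the edgeR model, was above 0 for 92 of 99 members, as it was for 51.5% of all tested models. Its median was 0.18 over the members and 0.00 over all tested models. None was called (edgeR quasi-likelihood test, smallest adjusted p among members 0.241), and DESeq2 and limma-voom called 0 members as well. Over all tested models edgeR and limma-voom called 0% and DESeq2 0.0897%. With edgeR 32 members (32.3%) had an unadjusted p under 0.05, all with the higher value in lane 7, against 6.87% of all tested models in that direction and 11.9% in either. FMg011281 had the smallest p, with a log2 difference of 0.36 ± 0.09 (SE; adjusted p = 0.241 with edgeR), followed by FMg019858 (Q08288) with 0.50 ± 0.14 (SE; adjusted p = 0.256 with edgeR's test). The members varied together from larva to larva, so these 99 values are far from independent.

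The gap between the lane medians was widest in copper sulfate larvae. The level of the members there had a median of 0.915 in lane 7 (6 larvae) and 0.749 in lane 6 (5 larvae). In bifenthrin larvae the medians were 0.449 in lane 7 and 0.407 in lane 6 (5 larvae each), and in controls they were 1.06 in lane 7 (5 larvae) and 0.976 in lane 6 (6 larvae). The ranges of the lanes overlapped in every group. The ratio of copper sulfate to control had a median over the members of 0.890 in lane 7 and 0.766 in lane 6, and it was under 0.8 for 3 members in lane 7 and for 62 members in lane 6. The ratio of bifenthrin to control had a median of 0.438 in each lane, and its highest value in either lane was 0.580. Applied to a single lane, the rule gave 210 models in lane 7, of which 75 were members, and 59 in lane 6, of which 29 were members.

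The dependence of each chemical's difference on lane was tested too, but the choice of members bears on it. The rule asked that bifenthrin larvae of both lanes lie below all controls, which disfavours a bifenthrin difference confined to a single lane. Its window for copper sulfate was set over both lanes together. For bifenthrin, 0 of 99 members were called for a lane interaction with edgeR, DESeq2 or limma-voom, and 5 members had an unadjusted edgeR p under 0.05. Among all tested models edgeR and limma-voom called 0% and DESeq2 0.00945%, and 3.38% had an unadjusted edgeR p under 0.05. For copper sulfate, in a test added after the data were seen, 0 members were called with any of the 3 tools, which called 0% of all tested models. There, 8 members had an unadjusted edgeR p under 0.05 and all 8 had a larger ratio in lane 7, against 1.34% of all tested models in that direction and 2.48% in either. The leading one was FMg011780 (Q568C9), with copper sulfate to control ratios of 1.02 in lane 7 and 0.667 in lane 6 and a log2 interaction of 0.61 ± 0.19 (SE; adjusted p = 1.00 with edgeR's test). What besides sequencing differed between lanes is not given in the labels, and the lanes held different larvae.

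The members varied together from larva to larva inside each group. After removal of group means, pairs of members had a mean correlation of log2 CPM of 0.294 over the 10 larvae with bifenthrin, 0.383 over the 11 with copper sulfate and 0.202 over the 11 controls. Over the 6800 models with mean counts between the quartiles of the members (110 to 361), the means were 0.0108, 0.0493 and 0.0574 in the same order of groups. These correlations share libraries and depth and are given as a description over 4851 pairs of members. Lane differences were not removed, here or in the correlations below, so a shift shared by the larvae of a lane enters them. The share of pairs with a correlation above 0 was 81.9% with bifenthrin, 85.4% with copper sulfate and 70.6% in controls. A single component held 37.5%, 48.6% and 31.5% of the standardised variance of the members in these groups, in that order. Neither of these shares was computed for the models of like counts, and with so few larvae a first component is sizeable in any set.

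The 213 models below the copper sulfate window, with copper sulfate ratios from 0.477 up to the limit of 0.8, also correlated with the members on average. They had a mean correlation with the members of 0.336 with bifenthrin, 0.408 with copper sulfate and 0.248 in controls, each a little above the mean among the members themselves. Among these 213 models the means were higher still, at 0.438 with bifenthrin, 0.480 with copper sulfate and 0.324 in controls. Varying together was therefore not particular to the members. The level of the 213 models ran from 0.236 to 0.407 in bifenthrin larvae, from 0.544 to 1.03 in copper sulfate larvae and from 0.752 to 1.13 in controls. Of these 213 models, 44 (20.7%) had an unadjusted edgeR p under 0.05 for lane, all 44 with the higher value in lane 7, 0 were called, and their median log2 difference of lane 7 over lane 6 was 0.16.

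**Figure D4:**
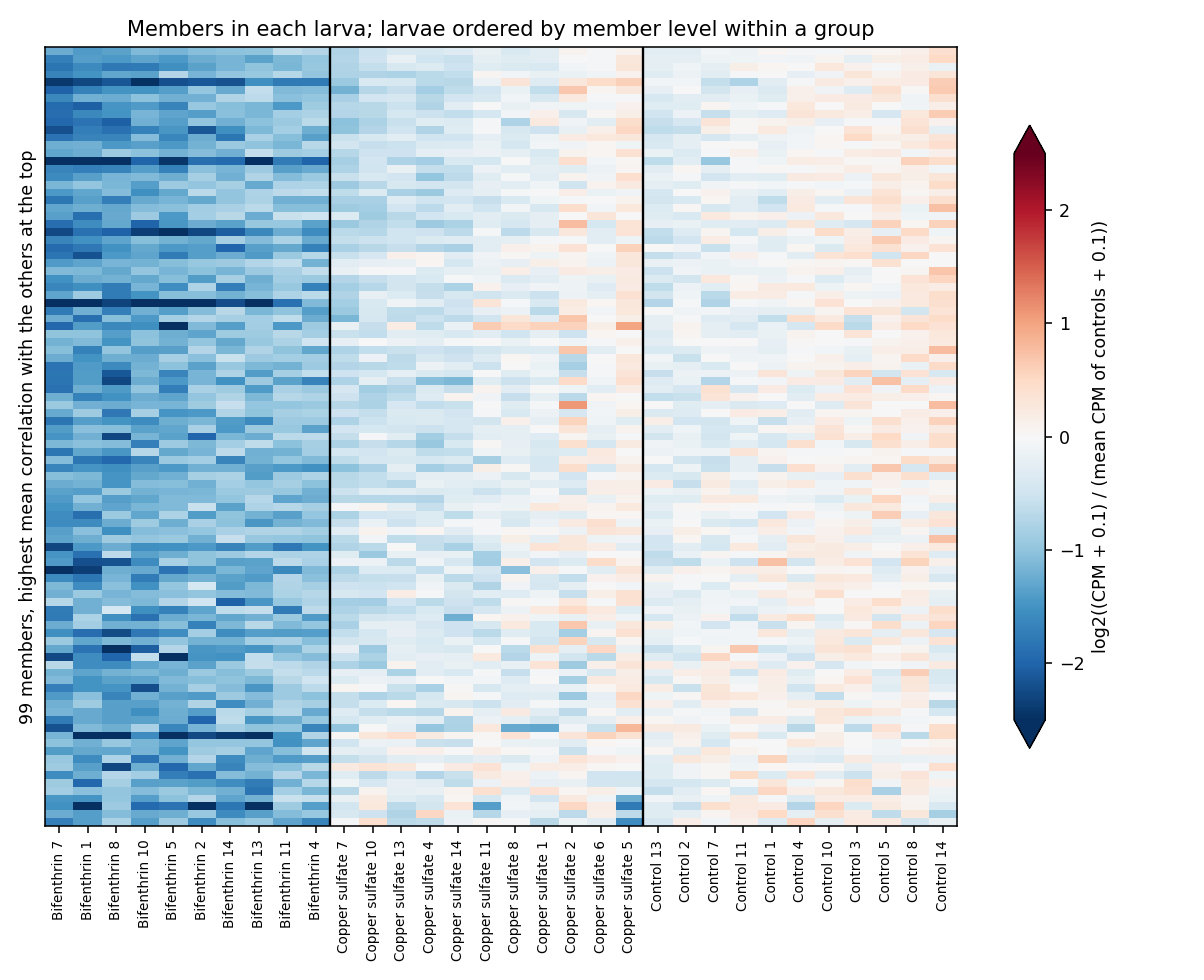
Log2 of CPM (plus 0.1) relative to the mean of controls for 99 members (rows) in 32 larvae (columns), with bifenthrin on the left, copper sulfate in the middle and controls on the right. Larvae are ordered by their level within each group and members by their mean correlation with the others. Copper sulfate replicate 7 is pale blue through most rows and copper sulfate replicate 5 is pale red, with exceptions near the bottom.

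Within the set, 96 of 99 members correlated on average positively with the others after removal of group means. FMg005235 had the highest mean correlation, 0.502, and the median over members was 0.327. The 3 exceptions were FMg005696 (B3DJC8), FMg015952 and FMg014186, with mean correlations of -0.165, -0.0334 and -0.0306. FMg005696 ran from 10.1 to 19.3 CPM in bifenthrin larvae, from 11.2 to 44.1 CPM in copper sulfate larvae and from 24.5 to 49.1 CPM in controls. Among copper sulfate larvae, replicate 5, the highest for the set, was the lowest for FMg005696 at 11.2 CPM, and replicate 10, next to lowest for the set, was the highest at 44.1 CPM. These 3 models were picked out as exceptions after their values were seen.

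In each group the median spread between larvae was larger for the members than for models of like mean count over all larvae. The gap was smallest in controls. The SD as a percentage of the mean had a median over members of 22.7% with bifenthrin, 23.2% with copper sulfate and 19.7% in controls. Over the 6800 models of like counts the medians were 15.4% with bifenthrin, 17.8% with copper sulfate and 17.8% in controls. It exceeded that median for 85 members with bifenthrin, 79 with copper sulfate and 57 in controls. The condition that bifenthrin and control larvae do not overlap limits the spread a member can have in those groups. Counts were not matched within groups. The members' median ratio to control was 0.441 with bifenthrin, against 0.942 over the models in the count window of the rule. With copper sulfate these medians were 0.835 and 0.946. The members' counts in bifenthrin larvae therefore tend to be lower than those of the matched models. The same does not follow for copper sulfate larvae, because the mean used for matching already includes the members' low bifenthrin counts. How much counting error adds to the members' spread in any group was not tested.

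Most of the other models that carried the same accessions as members were lower in bifenthrin larvae too. The 99 members had 15 such companions in the table, which belonged to 12 members, and all 15 were tested. With edgeR's quasi-likelihood test, 10 of the 15 were lower in bifenthrin larvae at an adjusted p under 0.05 and 0 were higher, against 20.2% lower and 18% higher among all tested models. Their median log2 fold change was -0.38, against -0.01 over all tested models. The companions were tested in the same larvae as the members, and where the sequences of a member and its companion are alike the counting may have divided reads between them, so both are uncertain to that extent. With lane 6 larvae alone 4 companions were called lower, and with lane 7 larvae alone 1. The shares of all tested models called in these smaller fits are not given here, so nothing is read from the drop. In the copper sulfate comparison 0 of 15 were called (edgeR), and 1.99% of all tested models were called lower and 3.58% higher. There, 0 of 15 had an unadjusted edgeR p under 0.05, against 18.6% of all tested models. The companions were reached through members kept by the copper sulfate window and may share reads with them. Nothing is therefore read from these copper sulfate counts.

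The companion with the smallest p was FMg017198, which shares Q6NV07 with FMg025608. It had 6.08 ± 0.73 CPM in bifenthrin larvae (SD, n = 10) and 10.2 ± 1.43 CPM in controls (SD, n = 11), a log2 fold change of -0.68 ± 0.12 (SE; adjusted p = 3.6e-05 with edgeR's test), against -2.21 ± 0.17 for the member. FMg022028, which shares its accessions with FMg022024, had 4.06 ± 0.87 CPM in bifenthrin larvae (SD, n = 10) and 8.25 ± 3.04 CPM in controls (SD, n = 11), a log2 fold change of -0.98 ± 0.19 (SE; adjusted p = 8.2e-05 with edgeR's test). FMg000883, which shares B8JJK1 with FMg000886, fell by 0.80 ± 0.16 on the log2 scale (SE; adjusted p = 1.0e-04 with edgeR's test). These companions were named because they were called lower, and every member is lower by the rule, so their shared direction follows from the choice.

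FMg010428 had 4 companions with the same 9 accessions, and they covered the range from a clear change to none that was detected. FMg021471 had a log2 fold change of -0.38 ± 0.08 (SE; adjusted p = 3.7e-04 with edgeR's test), FMg018873 of -0.36 ± 0.13 (SE; adjusted p = 0.0258 with edgeR's test) and FMg000075 of -0.20 ± 0.06 (SE; adjusted p = 0.0105 with edgeR's test). FMg004421, at 171 ± 18.1 CPM in bifenthrin larvae (SD, n = 10) and 192 ± 16.5 CPM in controls (SD, n = 11), had a log2 fold change of -0.10 ± 0.07 and was not called (SE; adjusted p = 0.301 with edgeR's test). The member itself stood at -0.93 ± 0.09 on the same scale. Without these 4 models, a choice made after seeing the data, 7 of 11 companions were called lower, against 20.2% of all tested models. The companions with a positive value, FMg008821 (0.20 ± 0.10) and FMg000236 (0.19 ± 0.12, both log2 fold change ± SE), were not called (edgeR adjusted p = 0.115 and 0.209), and their members FMg007978 and FMg005696 had ratios of 0.40 and 0.422.

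**Figure D5:**
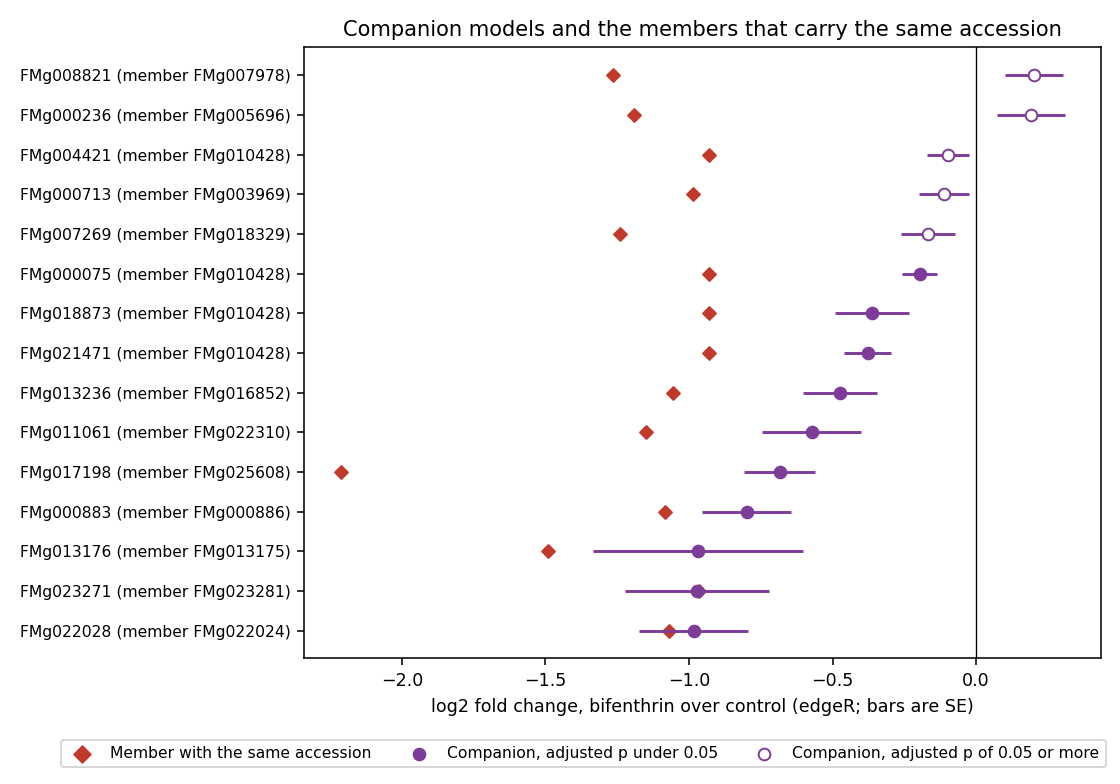
Log2 fold change of bifenthrin over control from the edgeR fit for the 15 companion models (circles, bars are SE, filled where the adjusted p is under 0.05) and for the member that carries the same accession (diamonds). Of the companions 13 lie left of 0 and 10 are filled, and the members stand at -0.93 or lower.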

How the data were processed

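Whole larvae were sequenced singly from 250 ng of total RNA with a kit for messenger RNA, per the labels' protocols. The authors deposited raw counts per gene model and larva, with no normalization. Tools listed without roles in the submitters' processing notes are STAR, limma and bcl2fastq 2.19.1. Which genome build, annotation, counting tool and strand setting were used was not given in the sources used here. Columns were assigned by their description labels, and 0 columns were left over. The members and lists were chosen with earlier results of these data known.

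The rule was applied to CPM by library totals. Tests used edgeR 4.0.16 in R 4.3.3 (filterByExpr, TMM, quasi-likelihood F test) over 21174 models, which held 99.9% of counts, in all 32 larvae with group and lane as terms, and Benjamini-Hochberg adjustment over all of them at 0.05. Each SE was obtained from the log2 fold change and the F statistic (size of the change over root F). Correlations used log2(CPM + 0.1). DESeq2 1.42.0 and limma-voom (limma 3.58.1) were alternatives, and the edgeR tests were checked on simulated data. The simulated counts were drawn independently, with no beakers and no variation shared between models. That check therefore cannot show how the p-values hold where larvae share beakers or models vary together. Beakers could not be modelled. In 155 within-group pairs of larvae the smallest chi-square of counts was 9.41 per degree of freedom, so none was treated as a repeat deposit.

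Named members are the 10 with the lowest bifenthrin ratio, the 6 with the highest CPM in controls, 3 at each end of the copper sulfate window and 3 on each side of the limit of 0.5, with any member that carries an enzyme class number (0 did). Others were named after their values were seen. Companions are models with an accession of a member, and 3 called in each direction are named by smallest p. The 12 lists of enzyme classes prepared for pathways and tissues held 0 models of the table and gave no result. A reference table of fathead minnow genes (RefSeq) matched 0 gene, transcript or protein identifiers, so no sequence, position or gene name is given.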

Additional observations from a re-analysis of the deposited data

Results flagged for a closer look

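In 5 of 99 members a single bifenthrin larva stood apart from the other 9 by more than Dixon's limit for groups of 10 (the gap to the next larva over the whole range). Chance marks about 1 in 20 groups, the members' share was 5.05%, and the share over the 16457 models of the same count window was 5.80%. Groups of 11 were not examined in this way.

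In FMg015679 bifenthrin replicate 4 was high at 9.25 CPM, where the next larva had 5.41 CPM; without it the bifenthrin to control ratio was 0.164, against 0.193 with it. In FMg006385 bifenthrin replicate 2 was high at 6.10 CPM, where the next had 4.20 CPM. In FMg015830 and FMg019631 bifenthrin replicate 14 was high, at 6.56 CPM and 11.5 CPM, where the next larvae had 5.26 and 9.27 CPM. In FMg008633 bifenthrin replicate 13 was low at 1.27 CPM, where the next had 2.02 CPM. Without the larva that stood apart, the ratio of each of the 5 models stayed at 0.482 or lower.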

How the results depend on the processing

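All 99 members were called lower in bifenthrin larvae under each of the 11 other settings and without any of the 32 larvae, which follows from their choice. No member was called for lane or for either lane interaction under any setting run, and the choice of members bears on the interactions. Companions called lower numbered 4 in lane 6 alone and 1 in lane 7 alone (the cause was not tested), 8 of the 13 left with a mean count of at least 50, 11 with library totals and 10 of 15 in the other settings; without single larvae they ranged from 8 to 10, and those called higher from 0 to 1. The shares of all tested models called under these settings are not given here, so the companion counts are not compared between settings. With the replicate number as a block in place of lane, 99 members and 10 companions were called lower and 0 companions higher, as without it. Of 30 same-numbered pairs, 8 had residuals that correlated above 0.1 (range -0.197 to 0.214, median -0.008). Pairs with different numbers were not examined, so whether the numbers pair the larvae is not settled. Larvae with the same number were always in the same lane. The rule itself was less stable than the calls: it gave 107 models with TMM scaling (69 shared), 99 with DESeq2 size factors (64 shared), 86 with medians (60 shared), 59 in lane 6, 210 in lane 7, and 62 to 124 without single larvae. It kept 32 of the 99 members whichever larva was left out. For named models, 336 of 338 alternative log2 fold changes moved by less than the spread between larvae, and 0 reversed. The other 2, both in lane 7 alone, were FMg009076 at -1.19 and FMg018329 at -1.65. The named members, and the models named just outside the ratio limit, had every bifenthrin larva below every control. The lack of reversals therefore follows from their choice, and nothing is read from it. Members with few counts, down to a mean of 51.8, are limited by counting error. The lists of enzyme classes held no models, so their alternatives were not run.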

Other observations

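Model numbers of members were consecutive in 2 cases. FMg007971 (Q6IQM9) and FMg007972 (R4GDR2) had bifenthrin to control ratios of 0.463 and 0.399, and after removal of group means their log2 CPM correlated with r = 0.630 over the 32 larvae. FMg018938 (Q7ZV23) and FMg018939 (A1L2E5) had ratios of 0.423 and 0.420 and r = 0.60. Their positions in the genome were not used here.

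The members without an accession were FMg013793 and FMg004663. They were 2.02% of the members, against 5.18% of the models in the same count window. FMg004663 ran from 5.17 to 11.3 CPM in bifenthrin larvae, from 12.4 to 24.0 CPM in copper sulfate larvae and from 14.9 to 27.8 CPM in controls.

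FMg006829 (Q7ZUY3) was the most even member in bifenthrin larvae, with an SD of 9.95% of the mean there, against 34.6% with copper sulfate and 35.1% in controls.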
